A study of Mus musculus with 27 samples.

Results

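The genes described here are 7 members of the adrenergic lipolysis pathway, chosen by their gene symbol: Adrb1, Adrb3, Pnpla2, Lipe, Mgll, Abhd5 and G0s2. All 7 had a row among the 24825 genes of the expression files. They were followed in C2C12 cells, a line of mouse myoblasts that normally fuse into muscle fibers, here a model of forced adipogenesis and not of adipose tissue. Control cells, cells given full-length NFIA and cells given the Δpro#3 mutant of NFIA, which lacks a short stretch at the C terminus, were compared. NFIA is a transcription factor of brown adipocytes, and both forms were introduced with a retrovirus and are not driven by their own promoter. Each of the 3 cell types was sampled undifferentiated (day 0), on day 7 without forskolin, and on day 7 with 10 µM forskolin given for 4 h, which made 9 groups of 3 replicates and 27 samples. The day 7 groups, controls included, had all received 0.5 mM isobutylmethylxanthine, 125 nM indomethacin and 1 µM dexamethasone for 48 h, and insulin (850 nM), T3 (1 nM) and rosiglitazone (1 µM) throughout. The labels do not say whether replicates came from separate cultures, so all p-values measure the spread between these samples, which may be technical.

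Lipolysis releases fatty acids from the triglyceride of a lipid droplet in 3 steps. Pnpla2 (adipose triglyceride lipase) removes the first fatty acid, Lipe (hormone-sensitive lipase) the next and Mgll (monoglyceride lipase) the last. Abhd5 is the protein co-activator of Pnpla2, and G0s2 is a protein that binds and inhibits it. Catecholamines start the process through beta-adrenergic receptors such as Adrb1 and Adrb3, the latter being typical of rodent adipocytes. The receptors raise cyclic AMP, protein kinase A then phosphorylates the droplet coat and the lipases, and much of this control acts on proteins that mRNA levels do not show. Forskolin activates adenylyl cyclase directly and so raises cyclic AMP without a receptor.

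Expression was measured as FPKM, the fragments per kilobase of gene scaled to the total of the sample, so that levels can be compared between genes. A sample held between 9567769 and 27230965 fragments. Nfia itself was at 0.0885 to 0.879 FPKM in 8 of 9 control samples, while control replicate 2 at day 0 had 7.35 FPKM. It differed between the 2 forms: at day 0 full-length NFIA samples had 225 to 250.2 FPKM and mutant samples 397 to 423 FPKM, at day 7 the ranges were 457 to 528 and 374 to 480.5 FPKM, and with forskolin 497 to 594 and 262 to 344 FPKM. The 2 forms overlapped at day 7 without forskolin but not in the other pairs of ranges, and the part of this difference in any comparison of the mutant with full-length NFIA was not tested. The 9 adipocyte markers summed to 13485 to 15002 FPKM in full-length NFIA-expressing cells at day 7 and to 360 to 398 FPKM in control cells, and the 9 muscle markers to 1779 to 2405 FPKM against 9997 to 11575 FPKM. Fabp4 alone made up 80.5% of the summed adipocyte means with full-length NFIA at day 7 without forskolin. Among the Δpro#3 mutant-expressing cells at day 7, replicate 1 stood apart: its adipocyte markers summed to 2041 FPKM, against 632 and 743 FPKM in the other 2, with muscle markers at 11400 to 11879 FPKM in all 3. Fabp4 alone ranged from 294 to 1415 FPKM in these 3 samples. With forskolin the adipocyte sums were 554 to 916 FPKM in mutant-expressing cells and 12981 to 13705 FPKM in full-length NFIA-expressing cells. The adipocyte marker Lep was listed at 0 in every sample of the control and mutant-expressing groups. Of the markers of other cell types, 4 macrophage genes summed to at most 26.6 FPKM with 1 of them at 0.5 FPKM or more, and 3 endothelial genes to at most 1.39 FPKM. In bulk samples, fewer cells of a type and less RNA per cell cannot be told apart, which bears on every level below.

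The proximal promoters of the lipase Pnpla2, its co-activator and its inhibitor are shown because these 3 genes act at one step. They are the 250 bases before the RefSeq start site (taken from GRCm38.p6), and each was found once in the NCBIM37 assembly that the expression files use. G0s2 lay on the minus strand at chr1:195099383-195099632, Pnpla2 on the plus strand at chr7:148640837-148641086 and Abhd5 on the plus strand at chr9:122260484-122260733. Capitals mark the letters of a cyclic AMP response element half-site (TGACG, or CGTCA for the other strand) and, in Abhd5, of a nuclear receptor half-site (TGACCT).
G0s2: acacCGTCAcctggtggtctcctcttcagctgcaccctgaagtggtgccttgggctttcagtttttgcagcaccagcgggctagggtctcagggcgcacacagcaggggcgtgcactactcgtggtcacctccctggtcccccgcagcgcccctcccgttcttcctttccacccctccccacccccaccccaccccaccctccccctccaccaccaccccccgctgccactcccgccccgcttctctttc
Pnpla2: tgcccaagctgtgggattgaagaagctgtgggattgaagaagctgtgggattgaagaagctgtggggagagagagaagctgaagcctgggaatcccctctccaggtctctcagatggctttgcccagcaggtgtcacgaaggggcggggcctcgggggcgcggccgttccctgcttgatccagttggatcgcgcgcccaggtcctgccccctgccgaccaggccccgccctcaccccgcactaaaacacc
Abhd5: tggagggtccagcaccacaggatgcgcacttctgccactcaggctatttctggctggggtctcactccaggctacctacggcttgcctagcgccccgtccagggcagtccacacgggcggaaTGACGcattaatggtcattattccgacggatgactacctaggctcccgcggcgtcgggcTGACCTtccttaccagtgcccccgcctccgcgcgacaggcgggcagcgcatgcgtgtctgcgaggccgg

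The windows were GC-rich, with 67.2% G or C in G0s2, 63.2% in Pnpla2 and 64.8% in Abhd5. In all, 8 windows of 6 of the genes (Adrb1, Pnpla2, Abhd5, G0s2, and a pair each for Lipe and Mgll) were searched on both strands. The half-site TGACG began 246 bases before the start site in G0s2 (position -246), at -128 in Abhd5 and at -90 in Adrb1, and was not in the other 5 windows; 17.8% of 32851 mouse promoter windows of the same length held it. The whole element TGACGTCA, which contains that half-site, was in none of the 8 windows and in 1.55% of all. The PPARγ-type repeat, AGGTCA followed after 1 base by a second AGGTCA, was in none of the 8 and in 0.0335% of all, and the half-site AGGTCA was in Abhd5 alone (at -69) and in 14.0% of all. The NFI palindrome, TTGGC followed after 5 bases by GCCAA, was likewise in none, against 0.0365% of all, whereas the half-site TTGGC occurred in Adrb1 (at -115 and -105) and in 1 Lipe window (at -238), as in 41.5% of all. The C/EBP letters TTGCGCAA were in none of the 8 and in 0.164% of all windows. These matches are letters in a window and not measured binding sites.

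The receptors were the lowest of the 7 genes. Adrb1 (chromosome 19, 56796862 to 56799352, plus strand) had its highest level in undifferentiated control cells, with 0.440, 0.310 and 0.277 FPKM at day 0. Full-length NFIA-expressing cells at day 0 had 0.172, 0.239 and 0.177 FPKM, and Δpro#3 mutant-expressing cells 0.0550, 0.0653 and 0.0310 FPKM. The 3 groups did not overlap, in the order control, full-length NFIA, mutant. These levels rested on 65, 31 and 9 fragments, so that the mutant-to-control ratio of fragments was 0.147 with a 95% counting interval of 0.0645 to 0.297, and the full-length-to-control ratio 0.591 (0.372 to 0.920). By day 7 the order was gone: the means were 0.147 ± 0.0597 FPKM in control cells, 0.168 ± 0.0272 FPKM with full-length NFIA and 0.177 ± 0.0859 FPKM with the mutant (SD, n = 3 each), and the groups overlapped. From day 0 to day 7 the ratio was 0.433 (0.234 to 0.757) in control cells and 3.79 (1.70 to 9.26) in mutant-expressing cells, without overlap in either.

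Adrb3 (chromosome 8, 28336248 to 28340060, minus strand) had at most 8 fragments in 6 of the 9 groups. At day 0 all 9 samples lay between 0 and 0.0582 FPKM, from 3, 3 and 8 fragments in the control, full-length NFIA and mutant groups. At day 7 full-length NFIA-expressing cells had 1.496, 1.88 and 1.25 FPKM, mutant-expressing cells 0.633, 0.245 and 0.182 FPKM, and control cells 0.0470, 0.0213 and 0.0305 FPKM. Every full-length NFIA sample was thus above every mutant sample, and every mutant sample above every control sample. On the log2(FPKM + 1) scale Adrb3 rose by 1.29 with full-length NFIA against control cells (SE 0.13, adjusted p = 1.02e-05), and the mutant group was lower than full-length NFIA by 0.92 (log2 difference -0.92, adjusted p = 0.000178). Adrb3 was tested at day 7 only because full-length NFIA-expressing cells brought its mean over 0.5 FPKM, so that it had to differ there, and its p-values are no independent support. This scale understates the change of a gene this low: the ratio of fragments, 188 against 4, was 49.5 (19.0 to 183). The rise with the mutant was 0.37 (adjusted p = 0.0416), but 0.23 (adjusted p = 0.132) without its replicate 1, the sample with the high adipocyte markers, and 5 of 8 fits that each left out 1 sample lost this call. The call was also lost with no filter on low genes (0.37, adjusted p = 0.0515).

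After forskolin Adrb3 stood at 0.634, 0.695 and 0.729 FPKM in full-length NFIA-expressing cells, all below the 3 samples without forskolin. In mutant-expressing cells it was at 0, 0.0213 and 0.0141 FPKM, and in control cells at 0, 0 and 0.0281 FPKM, so that only the full-length NFIA group held more than 2 fragments. The forskolin-to-none ratio of fragments was 0.425 (0.327 to 0.549) for full-length NFIA-expressing and 0.0406 (0.00477 to 0.156) for mutant-expressing cells, the latter from 2 fragments against 44. Adrb1 also had a ratio below 1 with full-length NFIA, 0.390 (0.147 to 0.943), from 8 against 18 fragments. With the mutant its ratio was 0.372 (0.159 to 0.808), from 10 against 24 fragments, with samples that overlapped. In control cells it was 0.771 (0.355 to 1.66), from 15 against 16 fragments. These were 27 comparisons of genes too low for the model, each by a 2-sided exact permutation test of 3 against 3 samples; the smallest p this design allows is 0.1, and after Benjamini-Hochberg adjustment none of them went below 0.225. The counting intervals cover counting error only.

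**Figure D1:**
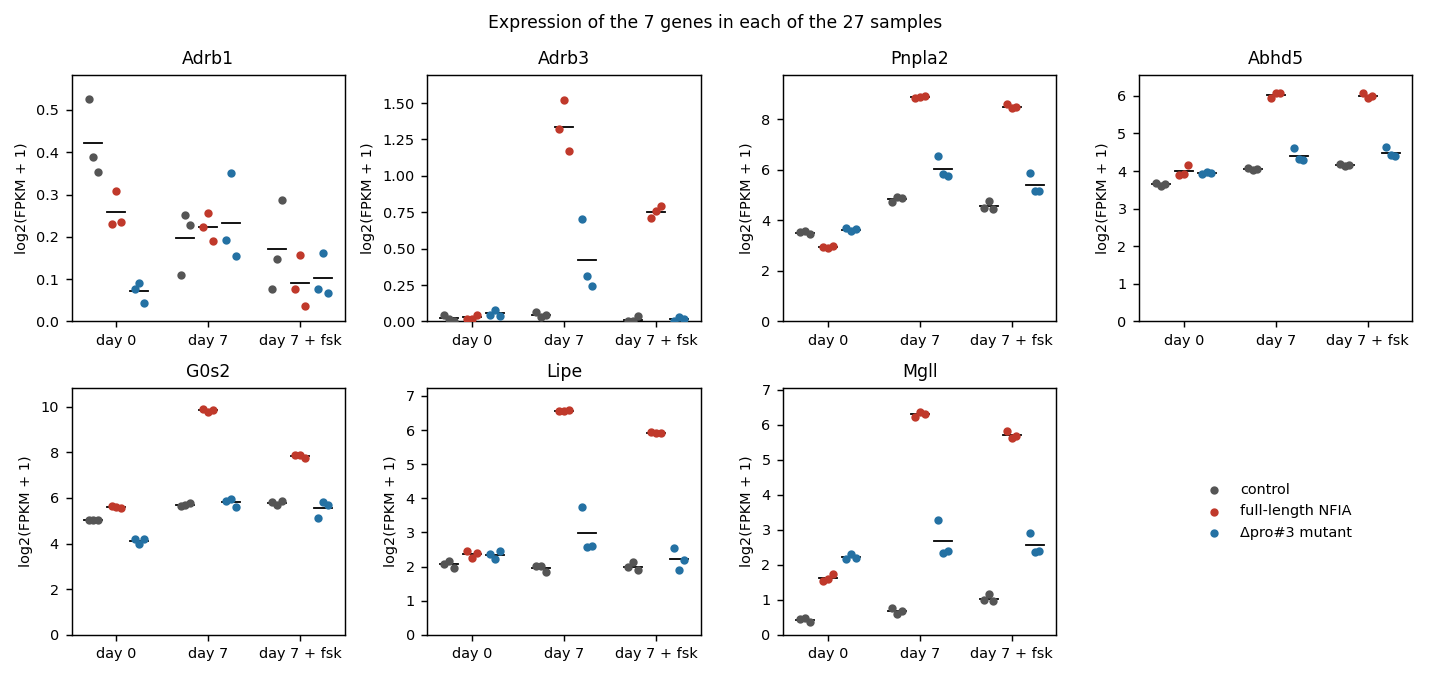
Levels of the 7 genes as log2(FPKM + 1), 1 panel a gene with its own vertical axis from 0, by time point along the horizontal axis. Each point is 1 of the 3 samples of a group and the black line is the group mean. Full-length NFIA samples lie above all other samples at day 7 in 6 panels, and in Adrb1 the groups overlap there.

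Pnpla2 (chromosome 7, 148641097 to 148646642, plus strand) was among the most abundant of the genes. In full-length NFIA-expressing cells it was at 457, 470.1 and 479 FPKM at day 7, against 25.1, 29.4 and 28.1 FPKM in control cells and 92.0, 55.3 and 52.9 FPKM in mutant-expressing cells. The groups were ordered without overlap, and the highest mutant value was that of replicate 1. Pnpla2 rose by 4.04 with full-length NFIA (log2, SE 0.17, adjusted p = 1.22e-08) and by 1.20 with the mutant (SE 0.17, adjusted p = 0.000301), and the mutant group was below full-length NFIA (log2 difference -2.84, adjusted p = 2.24e-07). At day 0 the direction was the opposite with full-length NFIA: 6.69, 6.46 and 6.89 FPKM, all below the control values of 10.4, 10.96 and 9.89 FPKM (log2 difference -0.57, adjusted p = 8.27e-07). The mutant group at day 0 was at 11.4 ± 0.509 FPKM, a log2 difference of 0.12 from control (adjusted p = 0.0511), which passed with limma-voom (adjusted p = 0.0396) and in 3 of 9 fits with 1 sample left out.

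Abhd5 (chromosome 9, 122260726 to 122290642, plus strand), the co-activator, had the narrowest range of the group, with a highest group mean 5.55 times the lowest. The control samples had 15.95, 15.4 and 15.6 FPKM at day 7, the full-length NFIA samples 60.03, 66.3 and 66.0 FPKM, and the mutant samples 23.5, 19.0 and 18.8 FPKM. The order was that of Pnpla2, without overlap, over a smaller span. Abhd5 rose by 1.96 (log2, SE 0.08, adjusted p = 1.16e-08) with full-length NFIA and by 0.36 (adjusted p = 0.00534) with the mutant. At day 0 it was already higher than in control cells with both, by 0.35 (adjusted p = 0.000443) and 0.30 (adjusted p = 0.00182).

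G0s2 (chromosome 1, 195098355 to 195099382, minus strand), the inhibitor, was the tested gene in which the 2 forms of NFIA differed most at day 0 and at day 7 without forskolin, though not with forskolin. Full-length NFIA-expressing cells had 966, 869 and 919 FPKM at day 7, the highest level of any member in any group. Mutant-expressing cells had 58.0, 60.01 and 47.0 FPKM and control cells 48.6, 49.9 and 53.5 FPKM, and these 2 groups overlapped. G0s2 rose by 4.15 with full-length NFIA (log2, SE 0.09, adjusted p = 1.72e-10), while the difference between mutant and control cells was 0.11 with a 95% interval of -0.09 to 0.31 (adjusted p = 0.329). Leaving out 1 sample moved this difference between 0.04 and 0.22, and without mutant replicate 3 at day 7 it passed (0.22, adjusted p = 0.0253). At day 0 the forms differed in direction: the control samples were at 31.4 to 32.1 FPKM, the full-length NFIA samples at 46.8 to 49.2 FPKM and the mutant samples at 14.9 to 17.4 FPKM. G0s2 was thus 0.58 higher with full-length NFIA (adjusted p = 1.58e-06) and 0.90 lower with the mutant (log2 difference -0.90, adjusted p = 8.95e-08), and the mutant differed from full-length NFIA by -1.48 (adjusted p = 1.87e-09).

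Lipe (chromosome 7, 26164546 to 26183729, minus strand) was at 93.9, 92.4 and 95.4 FPKM with full-length NFIA at day 7 and at 3.07, 3.03 and 2.56 FPKM in control cells. Mutant-expressing cells had 12.5, 4.94 and 5.13 FPKM, where the first value is the replicate with the high adipocyte markers. All mutant values were above all control values. Lipe rose by 4.61 with full-length NFIA (log2, SE 0.25, adjusted p = 7.85e-08) and by 1.02 with the mutant (SE 0.25, adjusted p = 0.00749), or by 0.64 (adjusted p = 0.000111) without that replicate. At day 0 the levels were 3.22 ± 0.311 FPKM in control cells, 4.19 ± 0.382 FPKM with full-length NFIA and 4.10 ± 0.398 FPKM with the mutant, small rises that both passed the test (0.30, adjusted p = 0.00553, and 0.27, adjusted p = 0.0110).

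Mgll (chromosome 6, 88674406 to 88778354, plus strand) had the largest span of the 5 genes tested throughout, its highest group mean being 221 times the lowest. It was nearly silent in control cells, with 0.355, 0.405 and 0.298 FPKM at day 0 and 0.695, 0.514 and 0.608 FPKM at day 7. With full-length NFIA it reached 74.0, 80.8 and 78.6 FPKM at day 7, and with the mutant 8.77, 4.07 and 4.27 FPKM. Mgll rose by 5.62 (log2, SE 0.20, adjusted p = 4.32e-09) and by 1.99 (SE 0.20, adjusted p = 4.14e-05). Like Pnpla2, it was higher with the mutant than in full-length NFIA-expressing cells before differentiation: at day 0 the mutant samples were at 3.52, 3.97 and 3.56 FPKM and the full-length NFIA samples at 1.91, 2.02 and 2.35 FPKM. Against control cells these were rises of 1.79 (adjusted p = 3.81e-09) and 1.19 (adjusted p = 4.50e-08), which the added 1 FPKM understates for a gene this low in control cells (3.07 and 2.28 with a pseudocount of 0.1), and the difference between the 2 forms was 0.60 (adjusted p = 1.96e-05).

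**Figure D2:**
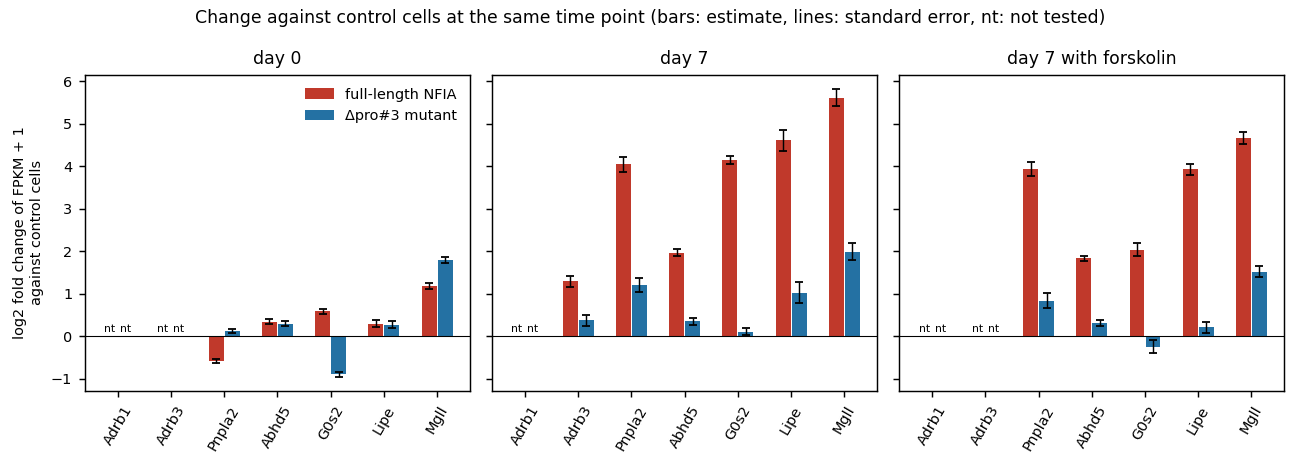
Log2 fold change of FPKM + 1 against control cells at the same time point for each gene, with full-length NFIA in red and the Δpro#3 mutant in blue. Bars are the estimates of the model and lines their standard errors, and nt marks genes below the level tested. At day 7 the red bars run from 1.29 for Adrb3 to 5.62 for Mgll and the blue bars from 0.11 for G0s2 to 1.99 for Mgll.

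Counted together, 6 of 7 genes were abundant enough to be tested at day 7 (Adrb1 was not). Apart from Adrb3, which passed the filter through the full-length NFIA group, all 5 rose with full-length NFIA, and all 5 more than 3-fold. Of the 12324 genes tested 72.4% changed in either direction, 31.3% rose and 4.87% rose more than 3-fold. With the mutant 4 of these 5 rose (48.8% of all genes changed, 21.3% rose), of which Mgll rose more than 3-fold (0.933% of all). In mutant-expressing cells all 5 were more than 3-fold below full-length NFIA (63.7% of all genes differed, 29.4% were lower and 3.70% more than 3-fold lower). At day 0 the 5 genes tested split with full-length NFIA into 4 that rose and Pnpla2, which fell (73.3% of 12105 genes changed), and with the mutant into 3 that rose, G0s2, which fell, and Pnpla2, which did not pass (62.2% changed). Between the 2 forms at day 0, Pnpla2 and Mgll were higher and G0s2 lower with the mutant, and Abhd5 and Lipe did not pass (65.3% of all genes differed). With so many genes changed in these comparisons, the count of members past the p threshold alone is close to the background except for its direction.

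The change over 7 days of the adipogenic regimen separated the cell types. In control cells Pnpla2 rose by 1.32, G0s2 by 0.66 and Abhd5 by 0.41 on the log2 scale (adjusted p = 1.24e-07, 4.48e-07 and 0.000123), while Lipe (-0.12, adjusted p = 0.608) and Mgll (0.25, adjusted p = 0.183) did not pass. Mgll did pass with a pseudocount of 0.1 (0.64, adjusted p = 0.00972) and without mutant replicate 1 at day 7 in the shared fit (adjusted p = 0.00249), and its samples of the 2 days did not overlap. These were 3 of 5 genes, where 78.7% of the 12408 genes tested changed and 36.0% rose. In full-length NFIA-expressing cells all 5 rose, all more than 3-fold (79.7% of all genes changed, 33.2% rose, and 5.38% rose more than 3-fold), from 2.03 for Abhd5 to 5.93 for Pnpla2. In mutant-expressing cells all 5 rose as well (79.5% of all genes changed, 32.8% rose), from 0.45 for Mgll (adjusted p = 0.0204) to 2.41 for Pnpla2, and 2 of them more than 3-fold (3.91% of all). The call of Mgll was lost in 3 of 18 fits with 1 sample left out, among them those without mutant replicate 1 or 3 at day 0 (adjusted p = 0.0550 and 0.0522). Without mutant replicate 1 at day 7 the rise of Mgll was 0.14 (adjusted p = 0.0821) and that of Lipe 0.24 (adjusted p = 0.0130), against 0.63 with it. The rise was larger than in control cells for all 5 genes with full-length NFIA (71.2% of all genes differed in their change, 31.1% upwards), by 4.62 for Pnpla2, 4.43 for Mgll, 4.31 for Lipe, 3.57 for G0s2 and 1.62 for Abhd5. With the mutant it was larger for 3 of 5 (44.7% of all, 18.9% upwards): Pnpla2 by 1.09 (adjusted p = 0.000228), G0s2 by 1.01 (adjusted p = 1.28e-06), which started from its lower level at day 0, and Lipe by 0.75 (adjusted p = 0.0463), a call lost in 15 of 18 fits with 1 sample left out, with no filter (adjusted p = 0.0816) and with limma-voom (adjusted p = 0.0668), and whose value was 0.36 without mutant replicate 1 at day 7.

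With forskolin, G0s2 in full-length NFIA-expressing cells went from 966, 869 and 919 FPKM to 237, 232 and 212 FPKM, with no overlap. It fell by 2.01 on the log2 scale (SE 0.13, 95% interval -2.30 to -1.73, adjusted p = 4.63e-09), the sixth largest estimated fall (rank 6) of 12245 genes, where 0.147% of all genes fell more than 3-fold. In control cells the same gene had 55.3, 51.1 and 56.8 FPKM with forskolin, a difference of 0.10 (adjusted p = 0.669), and in mutant-expressing cells 33.5, 56.1 and 50.8 FPKM, a difference of -0.25 (-0.54 to 0.03, adjusted p = 0.155). In mutant-expressing cells the value moved between -0.40 and -0.04 with 1 sample left out and passed without replicate 2 with forskolin (-0.40, adjusted p = 0.0346), while without replicate 1 at both time points it was 0.01. The response of G0s2 with full-length NFIA differed from that of control cells by -2.11 (SE 0.19, adjusted p = 7.78e-07). G0s2 remained above control cells with forskolin, at 227 ± 13.5 FPKM against 54.4 ± 2.94 FPKM (log2 difference 2.04, adjusted p = 3.87e-07). Of the 9 adipocyte markers in full-length NFIA-expressing cells, 6 were lower in all forskolin samples than in all samples without it (Cebpa went from 89.0 ± 3.75 to 48.3 ± 0.762 FPKM and Plin1 from 344 ± 22.1 to 207 ± 2.84 FPKM), 1 was higher (Lpl, from 946 ± 42.9 to 1406 ± 110.5 FPKM) and 2 overlapped. Their part in the fall of G0s2 was not tested.

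The lipases moved less. Pnpla2 had 382, 341 and 354 FPKM with forskolin and full-length NFIA, below all samples without it, but its difference of -0.39 did not pass the test (95% interval -0.78 to 0.01, adjusted p = 0.0911). It did pass in 2 of 18 shared fits with 1 sample left out, those without mutant replicate 1 at day 7 (adjusted p = 0.0306) or with forskolin (adjusted p = 0.0374). Lipe went to 60.8, 59.3 and 59.6 FPKM and Mgll to 55.2, 48.1 and 50.1 FPKM, and both fell, by 0.64 (adjusted p = 0.0220) and 0.60 (adjusted p = 0.0124). The call of Lipe was lost in 3 of 18 fits with 1 sample left out (without full-length NFIA replicate 3 at day 7, adjusted p = 0.0532, and with forskolin without replicate 2 or 3, adjusted p = 0.0513 and 0.0507). Abhd5 was at 66.3, 60.3 and 63.0 FPKM, overlapping the samples without forskolin, with a log2 difference of -0.02 (-0.18 to 0.14, adjusted p = 0.841), which became 0.12 after scaling. The median of all genes was -0.15 in this comparison as deposited and -0.04 after median-ratio scaling between samples, and with that scaling Lipe (-0.50, adjusted p = 0.0707) and Mgll (-0.46, adjusted p = 0.0513) no longer passed. Thus 3 of 5 genes fell (55.4% of all genes changed and 41.5% fell, with 25.03% of those calls higher as deposited and 43.9% after scaling), and 1 of 5, G0s2, after scaling.

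In control cells 0 of 5 genes passed for the response to forskolin by limma, also 0 at an unadjusted p under 0.05 and 0 by limma-voom, where 20.5% of all genes passed (34.3% of these calls were higher as deposited and 51.7% after scaling). The largest difference was that of Mgll, from 0.606 ± 0.0908 to 1.05 ± 0.158 FPKM (0.35, 95% interval -0.04 to 0.75, adjusted p = 0.210), without overlap between the samples. It passed with a pseudocount of 0.1 (0.71, adjusted p = 0.0355) and without mutant replicate 1 at day 7 in the shared fit (adjusted p = 0.0321). In mutant-expressing cells Pnpla2 (57.6, 34.8 and 34.5 FPKM) and Lipe (4.88, 2.72 and 3.54 FPKM) fell, by 0.64 (adjusted p = 0.0136) and 0.77 (adjusted p = 0.0131), which was 2 of 5 genes where 35.8% of all genes changed and 23.9% fell. Without mutant replicate 1 at day 7, which had the most adipocyte marker RNA of its group, the fall of Pnpla2 was 0.39 (log2 difference -0.39, adjusted p = 0.0816) and that of Lipe 0.38 (log2 difference -0.38, adjusted p = 0.0378). With forskolin, leaving out mutant replicate 2 lost both calls (adjusted p = 0.0685 for Pnpla2 and 0.0702 for Lipe), and leaving out mutant replicate 3 lost that of Pnpla2 (adjusted p = 0.0685). In the same cells 7 of the 9 adipocyte markers had a lower mean with forskolin, 2 of them without overlap (Plin1 went from 16.8 ± 10.3 to 2.67 ± 1.71 FPKM), while Lpl was higher without overlap, from 309 ± 56.4 to 425 ± 23.5 FPKM. In control cells, where 0 of 5 genes passed, 7 of the 9 markers had a lower mean too. There 3 were lower and 1 was higher without overlap. The part of these markers in the falls of Pnpla2 and Lipe was not tested. The response of Mgll differed between full-length NFIA-expressing and control cells by -0.95 (adjusted p = 0.0123), that of Lipe by -0.68 (adjusted p = 0.112, or 0.00488 without mutant replicate 1 at day 7 in the shared fit) and that of Pnpla2 by -0.11 (95% interval -0.67 to 0.45, adjusted p = 0.796). Together with G0s2 this made 2 of 5 genes, where 30.6% of all genes differed and 21.5% were lower. Between mutant-expressing and control cells 0 of 5 genes differed in their response (limma, with 1 at an unadjusted p under 0.05 and 0 by limma-voom), against 4.97% of all, and a difference in response between mutant and full-length NFIA was not tested.

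**Figure D3:**
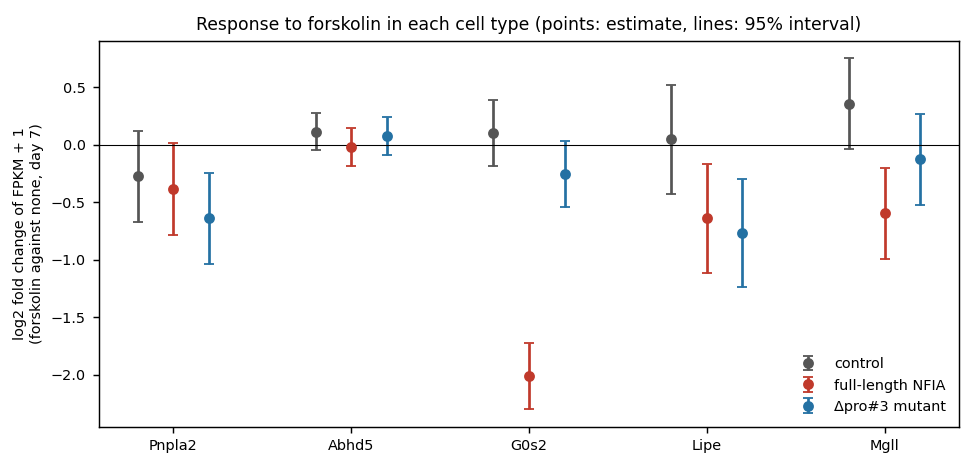
Log2 fold change of FPKM + 1 between day 7 with and without forskolin for the 5 genes tested, in control (gray), full-length NFIA-expressing (red) and Δpro#3 mutant-expressing cells (blue). Points are the estimates and lines their 95% intervals. The red point of G0s2 at -2.01 lies apart from its gray (0.10) and blue (-0.25) points, and the 3 intervals of Pnpla2 and of Abhd5 overlap.

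Against control cells that had received forskolin too, all 5 genes tested were higher with full-length NFIA (72.5% of the 12121 genes tested changed, 25.5% rose), from 1.83 for Abhd5 to 4.67 for Mgll. The mutant raised 3 of 5 (46.6% of all genes changed, 19.5% rose): Mgll by 1.51 (adjusted p = 6.65e-06), Pnpla2 by 0.84 (adjusted p = 0.00205) and Abhd5 by 0.32 (adjusted p = 0.00271). Lipe passed too without mutant replicate 2 (0.37, adjusted p = 0.0242). In mutant-expressing cells all 5 were below full-length NFIA (66.2% of all genes differed, 24.2% were lower), from -1.51 for Abhd5 to -3.72 for Lipe. The median of all genes in the first of these comparisons was -0.17 as deposited and -0.01 after scaling, so the members' rises are larger against that median than as given. Scaling moved the share of higher calls among all genes from 35.2% to 49.7% in this comparison, from 63.4% to 50.2% between mutant and full-length NFIA with forskolin, from 29.9% to 45.3% for the difference in response, from 41.6% to 51.7% for the change over time with full-length NFIA and from 42.2% to 53.1% for the mutant's difference in that change, with no change to the members' calls in these 5 comparisons.

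Because inhibitor, co-activator and lipase act on one another as proteins, the ratios of their mRNA levels within each sample were compared. The ratio of G0s2 to Pnpla2 was 1.85 ± 0.129 in control cells and 1.96 ± 0.137 in full-length NFIA-expressing cells at day 7, which overlapped although both genes differed greatly, and 0.868 ± 0.228 with the mutant, below both. With forskolin it was 0.633 ± 0.0427 in full-length NFIA-expressing cells, without overlap with the samples before, and 2.44 ± 0.411 in control cells, above them. Abhd5 per Pnpla2 at day 7 without forskolin was 0.137 in full-length NFIA-expressing cells, below the 0.572 of control cells and the 0.318 of the mutant, whereas at day 0 it was highest there, at 2.24 against 1.11 and 1.27. Mgll per Lipe at day 7 without forskolin was 0.829 and 0.787 in full-length NFIA- and mutant-expressing cells, which overlapped, and 0.211 in control cells. It was higher with the mutant, without overlap, at day 0 (0.908 against 0.502) and with forskolin (1.35 against 0.853). Adrb3 per Adrb1 at day 7 without forskolin was 9.15, 2.32 and 0.295 in the full-length NFIA, mutant and control groups, from few fragments of either gene. The mutant samples ranged from 0.891 to 4.46, with the highest in replicate 1. In these 28 exact permutation tests of 3 against 3 samples (2-sided) the smallest possible p of 0.1 was reached 21 times and the smallest adjusted p was 0.133.

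**Figure D4:**
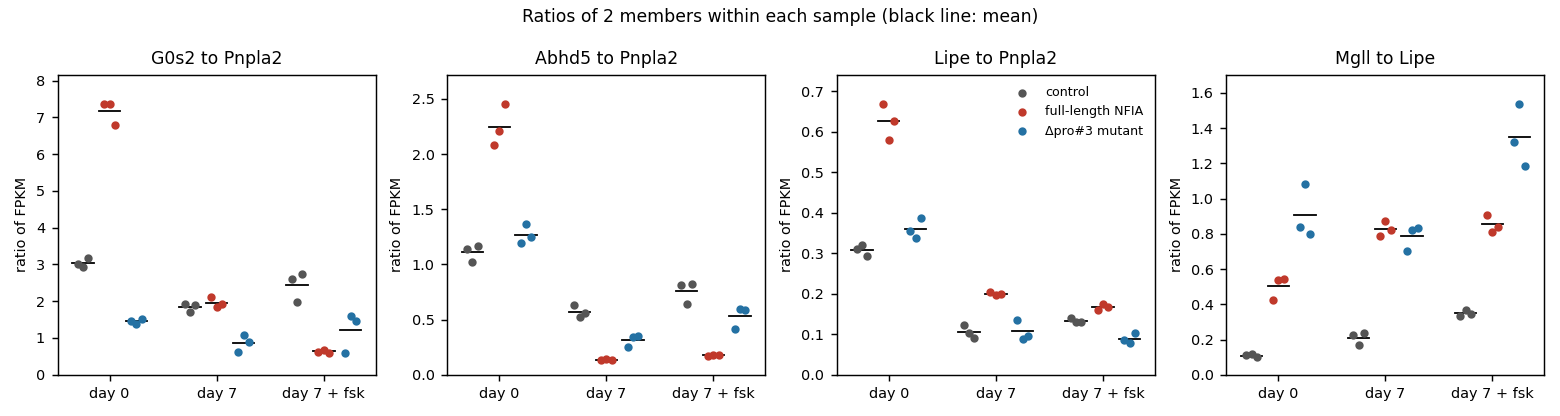
Ratios of the FPKM of 2 genes within each sample by time point and cell type, with linear axes from 0. Points are the 3 samples of a group and black lines their means. The G0s2 to Pnpla2 ratio of full-length NFIA-expressing cells goes from 7.17 at day 0 to 1.96 at day 7 and 0.633 with forskolin.

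The other genes of the pathway were described by a list of 53, which holds 15 further receptors and their regulators, 16 genes of cyclic AMP signalling, 10 of the lipid droplet, 5 other lipases and 7 of the insulin arm that opposes lipolysis. At day 7, 45 were tested, of which 8 passed the filter only through the full-length NFIA group and so had to differ there. Of the other 37, 22 rose and 9 fell with full-length NFIA (72.4% of all genes changed and 31.3% rose), with a median log2 difference of 0.26 against -0.08 over all genes. These included 7 droplet genes and 3 other lipases, which all rose, while 3 further droplet genes and 2 further lipases were among the 8. The 3 largest rises were those of Plin1, a droplet coat protein (2.79 ± 0.175 to 344 ± 22.1 FPKM), Fabp4, a fatty acid carrier (151 ± 9.62 to 11386 ± 697 FPKM), and Cidec, a droplet fusion protein (11.5 ± 1.92 to 766 ± 19.8 FPKM). The 3 largest falls were all in cyclic AMP signalling: the protein kinase A subunits Prkar2a (log2 difference -1.69) and Prkar1a (-0.60), and the phosphodiesterase Pde4b (-0.92). That class did not move one way: of its 13 genes among the 37, 4 were higher and 6 lower, with a median of -0.14. With the mutant 11 of the 37 rose and 8 fell, a share near that of all genes (48.8% changed, 21.3% rose), with a median of 0.02. After median-ratio scaling these counts became 15 and 7. The classes differed with the mutant: of the 7 droplet genes 6 rose and 0 fell, with a median of 1.58. Of the 3 other lipases 1 rose and 1 fell, and of the 13 genes of cyclic AMP signalling 0 rose and 3 fell.

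For the response to forskolin 45 of the listed genes were tested, of which 7 passed the filter only through the full-length NFIA group. Of the other 38, 12 rose and 16 fell in full-length NFIA-expressing cells, where 55.4% of all genes changed and 41.5% fell. In control cells 9 rose and 4 fell (20.5% of all genes changed), and with the mutant 11 rose and 11 fell (35.8% of all genes changed, 23.9% fell). The falls with full-length NFIA were thus near the background share, and after scaling the 12 rises and 16 falls became 13 and 9. All 3 phosphodiesterases of the list, which degrade cyclic AMP, rose in all 3 cell types. Pde4b rose by 2.20 with full-length NFIA (adjusted p = 9.55e-13), 1.97 in control cells and 1.86 with the mutant, and Pde3b by 0.96 (adjusted p = 3.00e-08), 1.32 and 0.97. Hilpda, a small droplet protein that inhibits Pnpla2 as G0s2 does, rose in all 3 cell types, and in full-length NFIA-expressing cells this was opposite to G0s2. It went from 25.6 ± 0.738 to 95.9 ± 6.67 FPKM with full-length NFIA (1.86, adjusted p = 5.39e-10), from 20.1 ± 2.31 to 38.7 ± 2.43 FPKM in control cells (0.92, adjusted p = 6.93e-06), and by 1.32 with the mutant (adjusted p = 6.27e-08). The difference between the responses of full-length NFIA-expressing and control cells was 0.95 (adjusted p = 0.000147). Pnpla3, a relative of Pnpla2 and 1 of these 7 genes, went from 64.4 ± 3.95 to 19.5 ± 0.603 FPKM with full-length NFIA, the lowest estimate of the list (-1.67) and given as a value only. The largest falls with full-length NFIA among the other 38 included the insulin signalling genes Irs1 (-1.18) and Pik3r1 (-0.93). Irs1 also fell in control cells (-0.89, adjusted p = 3.56e-06) and with the mutant (-1.25, adjusted p = 3.98e-08). Its response with full-length NFIA differed from that of control cells by -0.28 (adjusted p = 0.121). Pik3r1 did not pass in control cells (0.15, adjusted p = 0.199) or with the mutant (-0.08, adjusted p = 0.470). Irs2 rose by 1.60 with full-length NFIA, against 0.06 (adjusted p = 0.808) in control cells. Plin1 fell by 0.72 with full-length NFIA (adjusted p = 0.0447), but not past the threshold after scaling (-0.58, adjusted p = 0.107). It fell by 2.23 with the mutant (adjusted p = 1.96e-05), and in control cells the difference was -0.68 (adjusted p = 0.117), from 2.79 ± 0.175 to 1.37 ± 0.0291 FPKM without overlap.

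**Figure D5:**
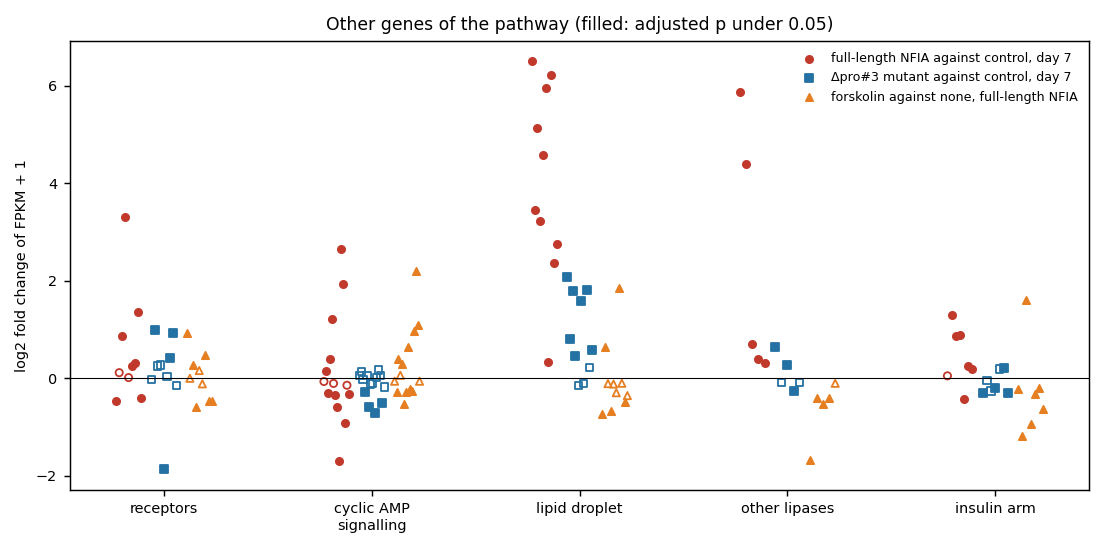
Log2 fold change of FPKM + 1 for the other genes of the pathway, 1 point a gene, in 5 classes along the horizontal axis. Red circles compare full-length NFIA-expressing with control cells and blue squares mutant-expressing with control cells at day 7, orange triangles are the response to forskolin in full-length NFIA-expressing cells, and filled points passed an adjusted p of 0.05. The red points of the droplet class and of the other lipases are filled and above 0, and 3 and 2 of them are genes that passed the filter only through the full-length NFIA group.

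The genes whose pattern was most like each member were looked up among 11582 genes by the Pearson correlation of log2(FPKM + 1) over the 27 samples, given as a description since the samples share 9 groups. For Pnpla2 the closest was Adipoq (r = 0.990), for Abhd5 Adipor2 (0.991), for Lipe Nr1h3 (0.993) and for Mgll Dbi (0.988). For G0s2 the closest, Acox2, was at 0.969. For Adrb3 it was A530016L24Rik (0.981). Between members, the 15 pairs without Adrb1 ran from 0.837 for G0s2 with Mgll to 0.962 for Abhd5 with Mgll, and the 6 pairs with Adrb1 from -0.338 to -0.0218.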

How the data were processed

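Polyadenylated RNA of 27 C2C12 samples had been sequenced with a stranded kit. Per the labels and the study's methods, the authors aligned reads to mouse mm9 with STAR 2.5.3a, kept unique alignments and deposited FPKM for each gene and sample, counted on the matched strand. These FPKM are not scaled between samples and not on a log scale, and both choices move small changes of all genes together. The annotation used for counting is not given in the sources used here. All values were whole multiples of 1 fragment (within 0.02 fragments), so fragments were worked back from FPKM, gene length and the step. Depth was 9567769 to 27230965 fragments, and 1 fragment sets the precision of Adrb1 and Adrb3.

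Groups and replicate numbers were taken from the labels. Replicate pairs of a group differed beyond counting noise (chi-square per gene 1.55 to 15.0). The members, the pathway list and the tests were chosen with earlier results of these data known. On log2(FPKM + 1), limma 3.58.1 (R 4.3.3, trended moderation) was fitted to genes whose mean was at least 0.5 FPKM: 9 samples per time point, and 18 for forskolin responses and for changes from day 0, with 2-sided p-values adjusted by Benjamini-Hochberg over all genes tested. "Rose" and "fell" mean an adjusted p under 0.05. Over 3-fold refers to FPKM + 1. Low genes and ratios were compared with exact permutation tests (SciPy 1.17.1), and intervals of fragment ratios are exact 95% binomial ones. Figures were drawn with matplotlib 3.10.9 in Python 3.11.15. The fits were tested on simulated data. Named pathway genes are Plin1, Cidec, Pde3b and Hilpda and the 3 largest rises and falls for full-length NFIA at day 7 and for its forskolin response. Alternatives were a pseudocount of 0.1, median-ratio scaling (genes at 1 FPKM or more in every sample), no filter, limma-voom on fragments, a replicate block, and leaving out each sample. Same-numbered samples did not deviate together, so the replicate number was not used as a block. Some genes that these rules name are not reported here. Other experiments of the study are not analysed here.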

Additional observations from a re-analysis of the deposited data

Results flagged for a closer look

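The response to forskolin differed between full-length NFIA-expressing and control cells for 2 of the 5 genes tested (30.6% of all genes differed and 21.5% were lower), by a test of the difference itself: G0s2 by -2.11 and Mgll by -0.95 on the log2 scale. Lipe (-0.68) joined them without mutant replicate 1 at day 7. The change from day 0 to day 7 differed between the same cells for all 5 genes tested (71.2% of all genes differed, 31.1% upwards), by 4.62 for Pnpla2, 1.62 for Abhd5, 3.57 for G0s2, 4.31 for Lipe and 4.43 for Mgll. The sums of adipocyte and of muscle markers moved with this difference (13485 to 15002 FPKM against 360 to 398 FPKM, and 1779 to 2405 FPKM against 9997 to 11575 FPKM at day 7), and the part of these markers in it was not tested. Between mutant-expressing and control cells the change over time differed (44.7% of all genes differed, 18.9% upwards) for Pnpla2 (1.09), G0s2 (1.01) and Lipe (0.75), the last a call lost in 15 of 18 fits with 1 sample left out, with no filter and with limma-voom. The group mean of G0s2 at day 7 was 55.0 FPKM in mutant-expressing and 50.7 FPKM in control cells, and at day 0 the means were 16.5 and 31.6 FPKM.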

How the results depend on the processing

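Of the alternatives to 98 values of single genes, 1761 kept direction and side of the threshold, 35 lost and 15 gained the threshold, and 18 changed sign. With a pseudocount of 0.1, and also with limma-voom, the genes over 3-fold became 1 instead of 0 for full-length NFIA at day 0, 2 instead of 1 for the mutant at day 7 and 1 instead of 0 for the mutant with forskolin. The control response to forskolin had 1 gene instead of 0 with that pseudocount (Mgll, 0.71, adjusted p = 0.0355), and median-ratio scaling left 1 of the 3 genes that fell with full-length NFIA. Leaving out 1 sample gave 0 to 1 gene over 3-fold for the mutant with forskolin, and 0 to 1 gene past the p threshold at any fold for the control response, 1 to 2 for the mutant response and 2 to 3 for the difference in response with full-length NFIA. At any fold it also gave 2 to 4 genes for the full-length NFIA response, against 3 with all samples. For the mutant against control cells at day 7 it gave 4 to 6, against 5, with Adrb3 included. Without mutant replicate 1 at both time points, which was chosen after seeing the data, 1 gene differed in response between mutant-expressing and control cells instead of 0 (Lipe, -0.60, adjusted p = 0.00876), and the mutant responses of G0s2 and Mgll were 0.01 (0.00611 and 0.00703). The values that changed sign had not passed with all samples, and not all were near 0. With all samples the mutant response of G0s2 was -0.25 and that of Mgll -0.13. The mutant's difference in change over time for Mgll, 0.20, became -0.11 with a pseudocount of 0.1 and -0.33 with limma-voom, and the response of Abhd5 with full-length NFIA became 0.12 after scaling. With 0.1 FPKM added to both genes, the log2 forskolin difference of Adrb3 per Adrb1 with full-length NFIA went from 0.45 to -0.32 and the log2 difference of Lipe per Pnpla2 at day 7 without forskolin (mutant against control) from 0.0100 to -0.0137; the larger Adrb3 per Adrb1 differences at day 7 were 3.47 and 1.49 instead of 5.33 and 3.03. Leaving out 1 sample turned the sign of 8 values. For mutant against full-length NFIA at day 0, Lipe became 0.0183 or 0.0397 and Abhd5 0.0314. For forskolin, Lipe in control cells became -0.0185 or -0.0199, Abhd5 with full-length NFIA 0.00491, 0.00136 or 0.0132, Mgll with the mutant 0.18, and the mutant's difference for Abhd5 0.0650 or 0.00829. The mutant's differences over time became -0.0418 for Abhd5 and -0.10 for Mgll. The cause of these changes was not tested. The replicate block, by numbers whose samples did not deviate together (mean r 0.0139 at day 0, -0.0314 at day 7 and -0.00195 with forskolin over 9 pairs each), changed no call of the 98 and called 8770 instead of 8917 of all genes for full-length NFIA at day 7. Depth limits Adrb1 and Adrb3, whose groups rested on 1 to 188 fragments.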
